A study of Mus musculus with 15 samples.

Results

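The interferon response genes described here are 37 mouse genes that cells switch on when interferon reaches them, followed in the auditory nerve before and after loud noise. They were chosen as a list of symbols, and each gene was read from its brightest probe set on average among those that the platform annotation pairs with that symbol alone. Of the 37 genes, 35 had such a probe set and 33 of these were bright enough to be tested, out of 18193 genes with a probe set of their own and 13644 tested. Oas3 and Mx1 lay in the dimmest 25% of genes and were not tested. Isg15 was read only through a probe set shared with Gm9706, and Ifi44 was not analysed here.

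Interferons are secreted proteins that bind receptors on nearby cells, where the kinases Jak1 and Tyk2 pass the signal to transcription factors, among them Stat2 and Irf9, that bind the interferon-stimulated response element in promoters. Irf7 is both a product of this pathway and a factor that amplifies it, and Usp18 is a product that damps it at the receptor. The induced genes include RNA sensors, enzymes that degrade or block viral RNA, membrane proteins that hinder viral entry and large GTPases that act on pathogen-containing compartments. In nervous tissue, resident macrophages, glia and neurons can all carry this programme, so its level alone does not name a cell type.

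All animals were CBA/CaJ mice of either sex, 5 to 12 weeks old, from a colony kept in low noise. The control group (n = 3) heard no noise, and the other groups of 3 were taken immediately, 1 day, 7 days or 14 days after 2 hours of noise that filled the octave from 8 to 16 kHz at a level of 106 dB SPL. The modiolus, the bony core of the cochlea that holds the nerve, was freed of the outer shell, of the lateral wall and of most sensory epithelium, so the tissue is a mixture of neurons, glia, vessels, immune cells and remaining bone. Every control was a female and every animal taken at 1 day a male, while the immediate, 7-day and 14-day groups each held 2 females and 1 male. The 1-day and control groups alone therefore cannot tell a change after noise from a difference between the sexes.

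Values are log2 intensities, so a difference of 1 is a 2-fold difference of signal. Array medians lay between 5.87 and 5.92. Mbp and Pmp22, myelin genes of Schwann cells and other glia, lay between 13.19 and 14.02 on all 15 arrays, and the neuronal gene Snap25 lay between 13.34 and 13.52, and the mean of 4 neuron genes lay between 12.32 and 12.55. In such bulk tissue a smaller number of cells of a type and less RNA in each cell cannot be told apart. The spread behind each p-value is the spread between these arrays, which were 3 in each group.

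One array stood apart for the interferon genes and bears on every comparison. The female labelled 14-day replicate 2 read the highest of the 15 arrays in 27 of 33 tested members, against 863 of all 13644 genes (6.33%). Its median difference from the control mean over the members was 1.30, while the other 14-day animals read 0.05 and 0.12. The 1-day animals read 0.26, 0.72 and 0.65 on this measure, the 7-day animals 0.29, 0.10 and 0.33, the immediate animals -0.15, 0.12 and 0.03, and the controls -0.02, -0.03 and 0.05. Because the fit pools the spread within groups, this animal also widened the error of the other comparisons. The median residual SD of the members was 0.38 with it and 0.23 without it, against 0.118 and 0.119 for all genes. Each comparison is therefore given over all 15 arrays and again without that array. Since that array was singled out by the members' own values, p-values of the members without it may be too small. The fit without it is given as a description beside the fit of all arrays.

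**Figure D1:**
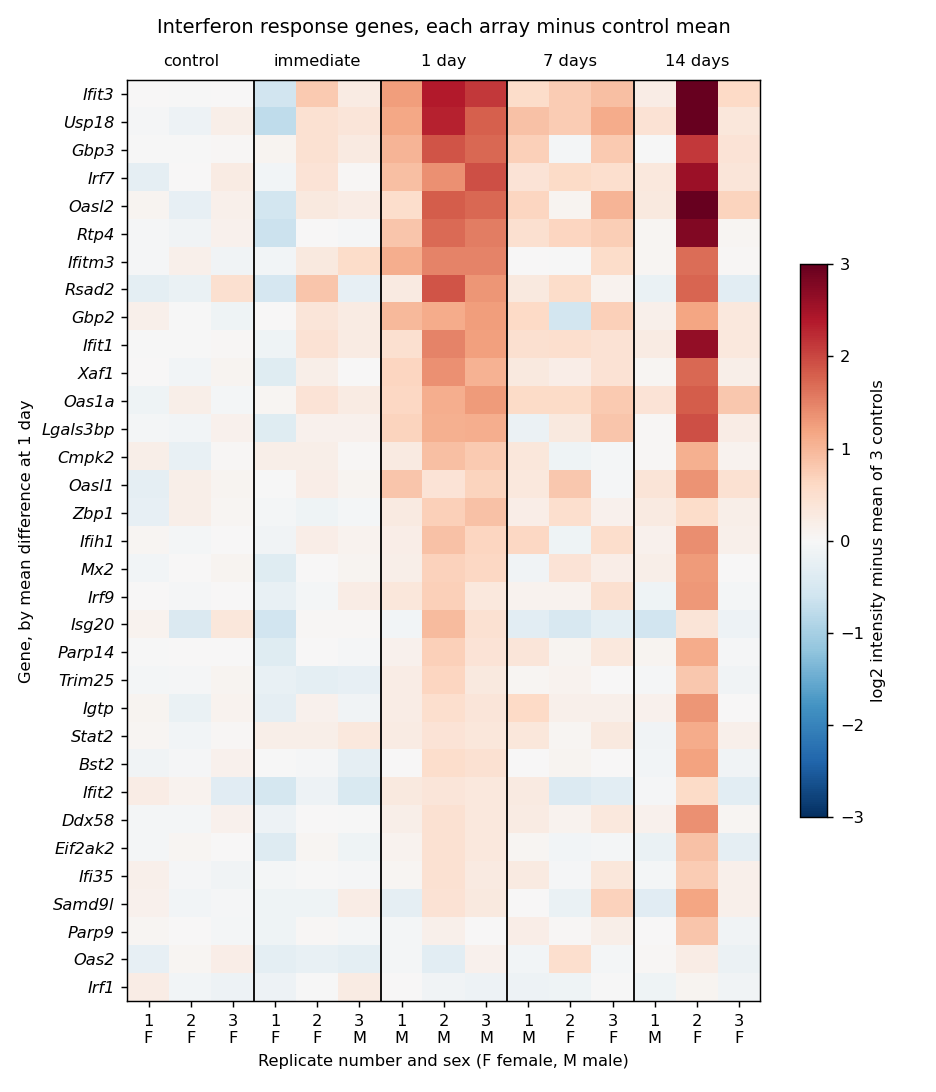
Log2 intensity of each of the 33 tested interferon response genes (rows, ordered by the mean difference at 1 day) on each of the 15 arrays (columns, by group, replicate number and sex), shown as the difference from the mean of the 3 controls. The 1-day columns and the 14-day replicate 2 column are red for most genes, while the other 14-day columns, with median differences of 0.05 and 0.12, are close to the controls.

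At 1 day after noise, 3 of the 33 members rose against control by limma with Benjamini-Hochberg adjustment over all genes, at a background of 3.18% of genes called in either direction and 1.52% called higher. They were Ifitm3, a membrane protein that hinders viral entry (2.56-fold), and the GTPases Gbp3 (2.91-fold) and Gbp2 (2.16-fold). None fell. The 3 animals of 1 day all lay above the 3 controls in 25 of 33 members, against 10.1% of all genes. The median change of the members was 0.57, against -0.01 for all genes, and 31 of 33 had a difference above 0.

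Without 14-day replicate 2, 14 members rose at 1 day, at a background of 2.82% of genes called and 1.50% called higher. These were Irf7, Trim25, Usp18, Ifit1, Ifit3, Oas1a, Oasl2, Cmpk2, Ifitm3, Gbp2, Gbp3, Rtp4, Xaf1 and Lgals3bp. The fold changes themselves do not depend on that array, only their standard errors. Since the array was chosen by these members' own values, the higher count without it is partly built in. With sex as a term, which borrows the sex difference from the other noise groups, 0 members were called (0.550% of genes). The median change in that fit was 0.68, and Ifitm3 changed by 1.55 ± 0.43, against an SE of 0.32 without the term. With sex as a term and without that array, an alternative added after the data were seen, 4 were called (0.388% of genes, 0.235% higher). These were Irf7, Ifit3, Oas1a and Ifitm3, all higher. The median change was then 0.51 and Ifitm3 changed by 1.28 ± 0.23, against 0.57 and 1.35 without the sex term. Among males alone, the 3 animals of 1 day lay above the single males of the immediate, 7-day and 14-day groups in 16 of 33 members, against 9.29% of genes.

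**Figure D2:**
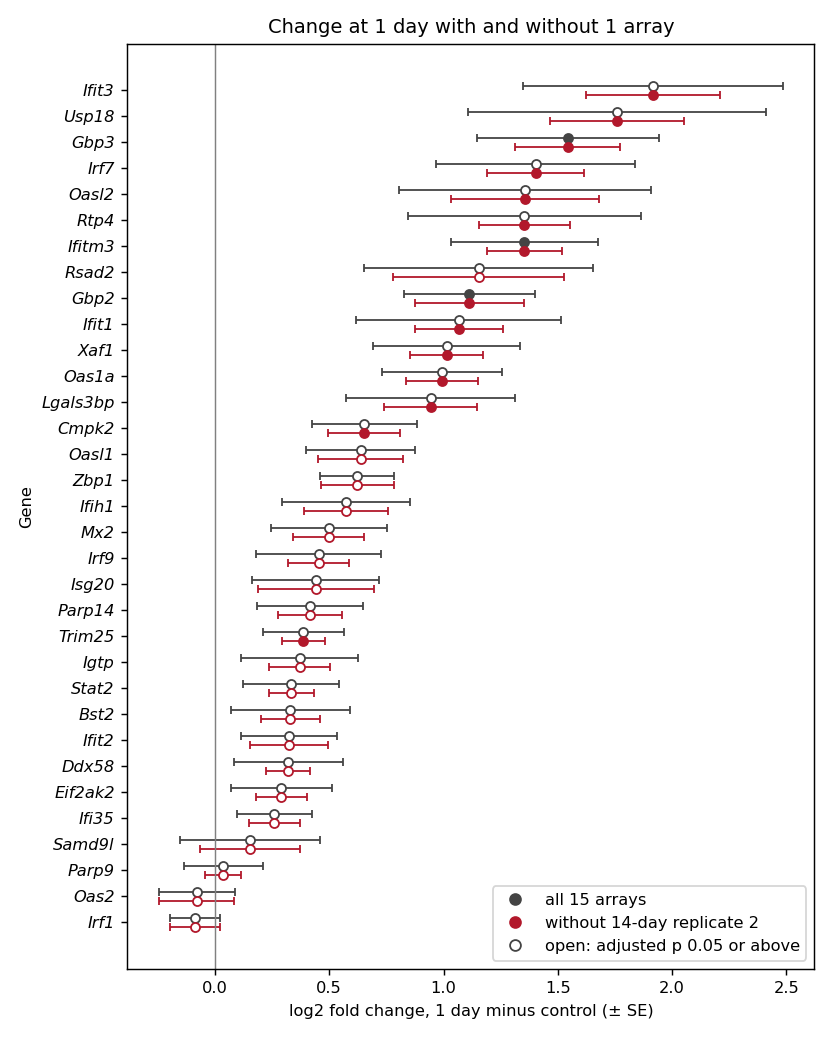
Log2 fold change at 1 day minus control for each of the 33 tested members (points, with the standard error of the limma fit), over all 15 arrays (grey) and without 14-day replicate 2 (red), with filled points where the adjusted p was below 0.05. The points coincide and the red bars are shorter for most genes, with 3 filled points over all arrays and 14 without that array.

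The promoters of the genes that led the 1-day change can be read beside these values. RefSeq windows of assembly GRCm38.p6, from 250 bases before to 50 after a gene's start, were found for 29 of the 37 members, and Oas2, Mx1, Mx2, Usp18, Rtp4, Parp9, Parp14 and Zbp1 were not in that table. The core letters of the interferon-stimulated response element, which are GAAA, any 2 bases and GAAA again, on either strand, were present for 15 of these 29 members (51.7%) and for 3.99% of 27025 genes. The letters of the gamma-activated site, TTCNNNGAA, another element of interferon-regulated promoters, were present for 9 of 29 (31%) and for 9.55% of genes. Both were present for 5 members, and the matches overlapped each other in Bst2 and Ifitm3. Isg15, Ifit1, Ifit3, Oas1a, Bst2, Ifitm3 and Gbp3 each held more than 1 match of the response element. Among tested members with a window, the median change at 1 day was 0.99 for the 13 with these core letters and 0.45 for the 13 without, a description with no test. A match is a string of letters and not a measured binding site.

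The 160 bases before the start are shown for 5 of these genes, 5′ to 3′ along the gene's own strand. These examples were chosen for holding the response element before the start among members called at 1 day in either fit. Irf7, Oasl2, Xaf1, Lgals3bp, Cmpk2 and Trim25 were called without 14-day replicate 2 and have windows with no match of the response element. Ifitm3 was called too, but its matches lie after the start and are not shown. Capitals mark the matches of the response element, which read TTTC, 2 bases and TTTC when they lie on the opposite strand. Ifit1 lies at chr19:34640729-34640888 on the plus strand, Ifit3 at chr19:34583369-34583528 on the plus strand, Gbp2 at chr3:142620503-142620662 on the plus strand, Gbp3 at chr3:142559884-142560043 on the plus strand and Oas1a at chr5:120907526-120907685 on the minus strand, all in GRCm38.p6.
Ifit1: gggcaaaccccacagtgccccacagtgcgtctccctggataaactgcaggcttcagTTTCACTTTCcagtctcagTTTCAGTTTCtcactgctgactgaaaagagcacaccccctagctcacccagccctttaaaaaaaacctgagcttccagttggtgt
Ifit3: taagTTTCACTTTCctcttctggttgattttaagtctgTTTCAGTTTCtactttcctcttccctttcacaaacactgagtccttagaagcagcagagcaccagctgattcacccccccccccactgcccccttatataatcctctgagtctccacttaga
Gbp2: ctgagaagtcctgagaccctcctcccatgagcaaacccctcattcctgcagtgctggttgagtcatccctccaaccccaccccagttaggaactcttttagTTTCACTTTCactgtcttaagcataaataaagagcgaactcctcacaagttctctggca
Gbp3: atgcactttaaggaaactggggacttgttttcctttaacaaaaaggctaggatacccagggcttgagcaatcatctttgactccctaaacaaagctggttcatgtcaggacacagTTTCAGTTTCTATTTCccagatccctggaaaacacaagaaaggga
Oas1a: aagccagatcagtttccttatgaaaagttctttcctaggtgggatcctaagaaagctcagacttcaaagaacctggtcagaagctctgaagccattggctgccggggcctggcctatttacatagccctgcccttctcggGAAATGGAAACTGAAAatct

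Ifit1 and Ifit3 held the same 2 matches, TTTCACTTTC and then TTTCAGTTTC, which began 104 and 85 bases before the start in Ifit1 and 156 and 122 bases before it in Ifit3. Gbp2 held the TTTCACTTTC form once, 59 bases before the start. In Gbp3 and Oas1a 2 matches shared bases with each other, beginning 45 and 39 bases before the start of Gbp3 and 20 and 14 bases before that of Oas1a.

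Among the transcription factors of the response, Irf7 differed most. It read 5.18, 5.47 and 5.69 in controls and 6.35, 6.81 and 7.39 at 1 day, with no overlap. The immediate animals read 5.36, 5.85 and 5.48, the 7-day animals 5.85, 6.03 and 5.96, and the 14-day animals 5.76, 8.01 and 5.82. The highest of the 15 arrays was thus the 14-day replicate 2, and the 1-day animals came next. The 1-day change of Irf7 was 1.40 ± 0.44 (SE) with an adjusted p of 0.0938 over all arrays by limma, and 1.40 ± 0.21 with an adjusted p of 0.00363 without that array.

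Irf9, the DNA-binding partner of Stat2, read 7.14, 7.09 and 7.14 in controls and 7.46, 7.83 and 7.44 at 1 day. It read 6.90, 7.06 and 7.35 immediately, 7.24, 7.22 and 7.61 at 7 days and 7.00, 8.42 and 7.06 at 14 days. Stat2 read 6.48, 6.35 and 6.46 in controls and 6.68, 6.84 and 6.77 at 1 day. Neither change was called over all arrays or without 14-day replicate 2, although the 1-day animals lay above all controls for both genes. Stat2 read 6.60, 6.60 and 6.74 immediately, also above all controls, and 6.76, 6.50 and 6.73 at 7 days. At 14 days it read 6.33, 7.55 and 6.59.

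Irf1, a factor induced mainly by interferon gamma, did not follow the others. It read 8.09, 7.80 and 7.73 in controls, 7.72, 7.86 and 8.13 immediately and 7.88, 7.76 and 7.72 at 1 day. The 7-day animals read 7.73, 7.74 and 7.85, and the 14-day animals 7.74, 7.95 and 7.76, so that even replicate 2 lay inside the range of the controls. Its 1-day change was -0.09 ± 0.11.

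The 5 sensors and kinases of foreign nucleic acid had 1-day changes from 0.29 to 0.62. Zbp1, a sensor of Z-form nucleic acid that can start inflammatory cell death, read 4.78, 5.21 and 5.10 in controls, 4.97, 4.91 and 4.96 immediately and 5.29, 5.75 and 5.92 at 1 day. The 1-day animals lay above the other 2 groups without overlap. Against the immediate animals Zbp1 rose by 0.71 ± 0.16 (adjusted p = 0.0171 by limma), while against control the change was 0.62 ± 0.16 (adjusted p = 0.0504). A second, dimmer probe set of Zbp1 differed from control by -0.14 at 1 day, so the probe sets of this gene disagree. With the mean over its probe sets, the rise from the immediate animals was 0.34 (adjusted p = 0.0975 by limma). Zbp1 read 5.24, 5.54 and 5.16 at 7 days, and 5.31, 5.57 and 5.21 at 14 days, where replicate 2 stayed below the 2 highest animals of 1 day. The call was lost without replicate 2 or 3 of either the immediate or the 1-day group, with adjusted p from 0.0505 to 0.0744.

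Trim25, the ubiquitin ligase that activates the RNA sensor encoded by Ddx58, read 7.77, 7.79 and 7.92 in controls and 7.60, 7.54 and 7.58 immediately after noise. It read 8.04, 8.47 and 8.13 at 1 day. The immediate animals lay below all controls and the 1-day animals above them. Trim25 rose by 0.64 ± 0.18 from the immediate to the 1-day animals (adjusted p = 0.0384 by limma). The call was lost without control replicate 2, without any of the immediate animals and without 1-day replicate 2 or 3, with adjusted p from 0.0501 to 0.149. Trim25 read 7.89, 7.94 and 7.84 at 7 days and 7.80, 8.63 and 7.71 at 14 days. Its other probe sets differed from control by 0.40 and 0.09 at 1 day. The RNA sensors Ifih1 (0.57 ± 0.28) and Ddx58 (0.32 ± 0.24) and the RNA-dependent kinase Eif2ak2 (0.29 ± 0.22) were not called against control, although for all of them the 1-day animals lay above the controls.

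Usp18, the protease that removes Isg15 from proteins and damps the receptor, had one of the widest ranges. It read 5.40, 5.27 and 5.61 in controls, 4.66, 5.89 and 5.78 immediately and 6.59, 7.74 and 7.23 at 1 day. The 7-day animals read 6.31, 6.19 and 6.53, all above the controls, and the 14-day animals 5.85, 9.19 and 5.76. Its 1-day change was 1.76 ± 0.65 (adjusted p = 0.161 by limma) over all arrays and 1.76 ± 0.29 (adjusted p = 0.00704) without 14-day replicate 2. The probe set shared by Isg15, the ubiquitin-like modifier itself, and Gm9706 read 5.30, 5.09 and 5.17 in controls and 5.54, 6.24 and 6.46 at 1 day. It read 4.81, 5.50 and 5.45 immediately, 5.50, 5.69 and 5.81 at 7 days and 5.24, 7.23 and 5.51 at 14 days, and was not tested as a gene.

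Of the 14 antiviral effectors tested, 1 rose at 1 day over all arrays (1.52% of all genes) and 6 without 14-day replicate 2 (1.50%). Ifitm3 was the brightest of them. It read 10.42, 10.61 and 10.36 in controls, 10.38, 10.76 and 11.01 immediately and 11.55, 11.94 and 11.96 at 1 day. The 7-day animals were back at 10.48, 10.45 and 11.01, and the 14-day animals read 10.53, 12.13 and 10.51. Every 1-day animal lay above every control, immediate and 7-day animal. Ifitm3 rose by 1.35 ± 0.32 against control (adjusted p = 0.0366 by limma) and by 1.10 ± 0.32 against the immediate animals (adjusted p = 0.0482). It fell by 1.17 ± 0.32 from 1 to 7 days (adjusted p = 0.0349). The call against control was lost without any of the controls and without 1-day replicate 2 or 3, with adjusted p from 0.0709 to 0.139. The rise from the immediate animals was lost without any single control, immediate or 1-day animal and without 7-day replicate 1 or 2, with adjusted p from 0.0513 to 0.157. The fall was lost without 1-day replicate 2 or 3 and without 7-day replicate 1 or 2, with adjusted p from 0.0854 to 0.119.

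Ifit1 encodes a protein that binds viral RNA lacking the methylation of host caps, and Ifit3 belongs to the same family. Ifit3 read 7.32, 7.30 and 7.31 in controls, and 8.56, 9.68 and 9.44 at 1 day. The immediate animals read 6.74, 8.10 and 7.56, spread on both sides of the controls, and the 7-day animals 7.87, 8.08 and 8.22. The 14-day animals read 7.54, 10.56 and 7.90. The 1-day change of Ifit3 was the largest of the members, at 1.92 ± 0.57 (adjusted p = 0.0809 by limma) over all arrays and 1.92 ± 0.29 (adjusted p = 0.00434) without that array. Ifit1 read 7.63, 7.62 and 7.68 in controls, 7.52, 8.08 and 7.89 immediately, 8.12, 9.14 and 8.87 at 1 day and 8.12, 8.14 and 8.07 at 7 days. At 14 days it read 7.89, 10.28 and 7.97. The controls of both genes lay close together, and 1-day replicate 1 was the lowest of its group for both. Ifit2, of the same family, read 8.48, 8.36 and 7.92 in controls, 7.72, 8.09 and 7.80 immediately and 8.55, 8.62 and 8.56 at 1 day, a change of 0.32 ± 0.21 against control that was not called. It read 8.52, 7.85 and 7.93 at 7 days and 8.22, 8.82 and 7.93 at 14 days.

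The oligoadenylate synthetase family, whose enzymes make the messenger that activates RNase L, was uneven. Oas1a read 6.47, 6.77 and 6.54 in controls, 6.66, 7.00 and 6.84 immediately and 7.21, 7.69 and 7.86 at 1 day. At 7 days it read 7.17, 7.16 and 7.38, still above all controls. Its change was 0.99 ± 0.26 at 1 day (adjusted p = 0.0530 by limma) and 0.64 ± 0.26 at 7 days (adjusted p = 0.385). Oasl2 read 5.94, 5.60 and 6.0 in controls, 5.29, 6.15 and 6.07 immediately and 6.38, 7.66 and 7.57 at 1 day. It read 6.50, 5.94 and 6.87 at 7 days and 6.13, 8.94 and 6.52 at 14 days, and its 1-day change was 1.36 ± 0.55 (adjusted p = 0.205 by limma). Oas2 read 5.50, 5.82 and 5.95 in controls and 5.70, 5.45 and 5.88 at 1 day, a change of -0.08 ± 0.17. It read 5.47, 5.54 and 5.46 immediately, 5.67, 6.27 and 5.70 at 7 days and 5.79, 5.97 and 5.58 at 14 days. Oas3 lay between 4.28 and 4.65 on all arrays, near the bottom of the measured range. The 1-day animals lay above all controls for Oas1a, Oasl1 and Oasl2 and overlapped them for Oas2, and the difference between these genes was not tested.

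Rtp4, a chaperone of membrane receptors that interferon induces, read 7.25, 7.18 and 7.42 in controls, 6.63, 7.29 and 7.25 immediately and 8.11, 8.99 and 8.81 at 1 day. At 7 days it read 7.77, 7.93 and 8.02, and at 14 days 7.35, 10.07 and 7.35. The 1-day and the 7-day animals lay above all controls, the 7-day animals below all 1-day animals. Its 1-day change was 1.35 ± 0.51 (adjusted p = 0.168 by limma) over all arrays and 1.35 ± 0.20 (adjusted p = 0.00310) without that array. Mx1, a GTPase that blocks viral replication in the nucleus, was too dim for the test but read 3.95, 3.93 and 4.22 in controls, 4.32, 5.61 and 5.24 at 1 day and 6.38 on 14-day replicate 2.

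Bst2, or tetherin, which holds budding virus at the cell surface, read 5.95, 6.02 and 6.19 in controls, 6.05, 6.02 and 5.79 immediately and 6.06, 6.58 and 6.51 at 1 day. It read 6.07, 6.14 and 6.06 at 7 days and 5.96, 7.27 and 5.94 at 14 days. The 1-day animals overlapped the controls. Isg20, an exonuclease, read 5.75, 5.21 and 6.0 in controls, 5.09, 5.69 and 5.68 immediately, 5.56, 6.61 and 6.11 at 1 day and 5.34, 5.18 and 5.36 at 7 days. At 14 days it read 5.07, 6.05 and 5.51. It overlapped the controls at every time. Rsad2 (viperin), with a 1-day change of 1.15 ± 0.50, was not called in either fit, and its 3 probe sets gave changes of 0.90, 1.29 and 1.15. Of the other members, Xaf1, a promoter of apoptosis, changed by 1.01 ± 0.32 (adjusted p = 0.0989), Lgals3bp, a secreted glycoprotein, by 0.94 ± 0.37 (adjusted p = 0.187) and Cmpk2, a mitochondrial nucleotide kinase, by 0.65 ± 0.23 (adjusted p = 0.142) over all arrays by limma. These 3 were called without 14-day replicate 2, with adjusted p of 0.00496, 0.0252 and 0.0418. A second probe set of Cmpk2, nearly as bright, changed by 0.37 at 1 day, and its 1-day animals did not all lie above the controls. Oasl1 (0.64 ± 0.24), the GTPase Mx2 (0.50 ± 0.25), Parp14 (0.42 ± 0.23) and Ifi35 (0.26 ± 0.16) were called in neither fit. Parp9 (0.04 ± 0.17) and Samd9l (0.15 ± 0.31) were not called either.

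Of the 3 interferon-induced GTPases, Gbp2 and Gbp3 rose at 1 day and Igtp was not called (0.37 ± 0.25). Gbp3 read 7.11, 7.11 and 7.18 in controls, 7.21, 7.58 and 7.41 immediately, 8.15, 9.02 and 8.86 at 1 day and 7.85, 7.08 and 7.93 at 7 days. It rose by 1.54 ± 0.40 (adjusted p = 0.0493 by limma). Gbp2 read 7.71, 7.55 and 7.44 in controls, 7.58, 7.92 and 7.81 immediately, 8.53, 8.68 and 8.83 at 1 day and 8.17, 7.02 and 8.28 at 7 days. It rose by 1.11 ± 0.29 (adjusted p = 0.0480 by limma), and its second probe set gave 1.12. In both genes 1-day animals lay above all controls, while 7-day replicate 2 lay below every control. At 14 days Gbp3 read 7.13, 9.25 and 7.55 and Gbp2 read 7.71, 8.76 and 7.88. These genes have close relatives, and the array does not show how far a probe set also binds a relative's RNA. Both calls lay close to the threshold. They were lost without any single control or immediate animal, without 1-day replicate 2 or 3 and without 14-day replicate 3, for Gbp2 also without 1-day replicate 1 and for Gbp3 also without 7-day replicate 1, with adjusted p up to 0.160 for Gbp2 and 0.196 for Gbp3.

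**Figure D3:**
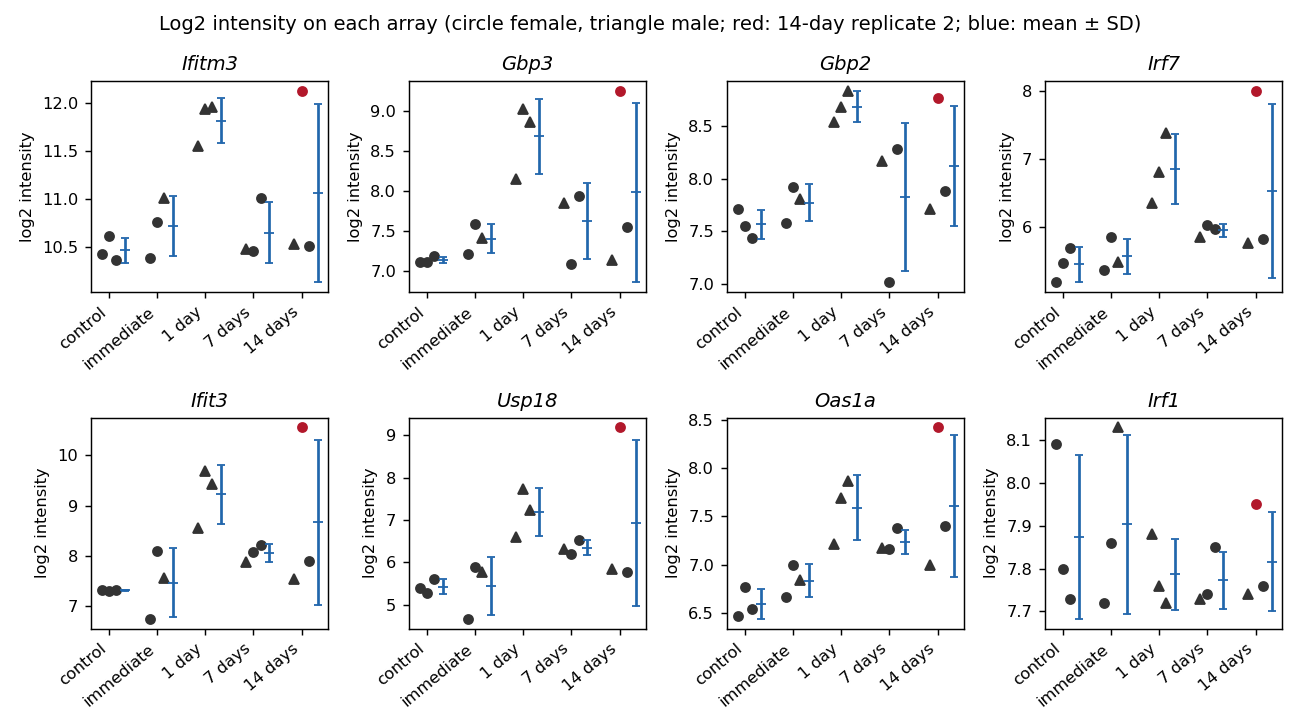
Log2 intensity of 8 members on each array (circles female, triangles male, 14-day replicate 2 in red) by group, with the group mean ± SD in blue (n = 3). In 7 of these genes the 1-day animals lie above all controls and 14-day replicate 2 lies well above the other 14-day animals, whereas Irf1 shows overlapping groups. For Irf7, Ifit3, Usp18 and Oas1a the other 14-day animals also lie above all controls.

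Immediately after noise 0 of 33 members were called, at a background of 0.931% of genes, and 0 had an unadjusted p under 0.05, against 15.5% of genes. Without 14-day replicate 2, again 0 were called (0.748% of genes) and 3 had an unadjusted p under 0.05, Stat2, Trim25 and Ifit2, against 14.9% of genes. The median change was -0.02, the same to 2 decimals as that of all genes. Gbp3 (0.27 ± 0.40) and Stat2 (0.22 ± 0.21) lay above all controls, as 8.86% of genes did, and Trim25 (-0.25 ± 0.18) below them, as 12.3% did. Replicate 1 of the immediate group, a female, read the lowest of the 15 arrays in 17 of 33 members. The share of all genes lowest on that array was not computed. Between the immediate and the 1-day animals 3 members rose, namely Zbp1, Trim25 and Ifitm3, at a background of 8.39% of genes called and 4.02% called higher. Without 14-day replicate 2, 20 members rose (7.67% of genes called, 3.81% higher). With sex as a term 1 rose over all arrays, Zbp1 (4.78% called, 1.86% higher), and 10 without that array (3.86% called, 1.58% higher). The 1-day animals lay above the immediate animals without overlap in 25 of 33 members, against 15.4% of genes. The median change was 0.61.

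At 7 days 0 members were called against control, at a background of 0.0220% of genes, and 1 had an unadjusted p under 0.05, Oas1a, against 11.2% of genes. Without 14-day replicate 2, 0 were called (0.0293% of genes) and 9 had an unadjusted p under 0.05, against 10.6% of genes. All 9 were higher than control, against 5.71% of genes. These were Irf7, Stat2, Ddx58, Usp18, Ifit1, Ifit3, Oas1a, Igtp and Rtp4. The median change was 0.25, against 0.01 for all genes, and 29 of 33 members had a difference above 0. In 11 members the 7-day animals lay above all controls without overlap, against 8.19% of genes, and these included Irf7, Irf9, Stat2, Usp18, Ifit1, Ifit3, Oas1a and Rtp4. From 1 to 7 days Ifitm3 alone fell over all arrays, at a background of 9.35% of genes called and 4.22% called lower. Without 14-day replicate 2, 8 members fell, namely Irf7, Ifit3, Cmpk2, Ifitm3, Gbp2, Gbp3, Rtp4 and Xaf1 (8.36% called, 3.97% lower). With sex as a term the number over all arrays was 0 (3.29%). The 7-day animals lay below the 1-day animals without overlap in 12 of 33 members, against 9.77% of genes. The second probe set of Cmpk2 read 7.22, 7.54 and 7.52 at 1 day and 7.05, 7.62 and 7.23 at 7 days, with overlap.

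At 14 days 0 members were called, at a background of 0.00% of genes. With all arrays 8 members had an unadjusted p under 0.05, all higher (7.85% of genes, 5.01% higher). In these members, however, 14-day replicate 2 lay well above the other 14-day animals. Without it 0 were called (0.00% of genes) and 1 had an unadjusted p under 0.05, Oas1a, against 5.13% of genes. The median change was 0.49, and 0.07 without replicate 2. In 8 members the 3 animals lay above all controls, against 8.77% of genes (13.0% without replicate 2, with the same count of members), namely Irf7, Ifih1, Usp18, Ifit1, Ifit3, Oas1a, Oasl1 and Oasl2. Oas1a read 7.00, 8.42 and 7.40, so even the lower animals exceeded the highest control of 6.77. Between 7 and 14 days 0 members were called (0.00% of genes) and 0 had an unadjusted p under 0.05 (2.10%). The median change of 0.29 turned to -0.18 without replicate 2. Over all arrays 0 members lay below all 7-day animals (1.72% of genes). Without replicate 2, 12 members did, against 3.96% of genes, namely Irf7, Irf9, Eif2ak2, Trim25, Usp18, Ifit1, Rsad2, Bst2, Igtp, Rtp4, Parp9 and Xaf1. In that fit 0 were called (0.00733% of genes), and 3 had an unadjusted p under 0.05, Irf9, Rtp4 and Parp9, against 1.95% of genes. All comparisons against control share the same 3 control arrays, and consecutive comparisons share a group.

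In 14-day replicate 2, 24 of 33 members read at least 1 above the control mean. This level was reached by 4, 13 and 13 members in the 3 animals of 1 day and by 2 at most in any other. The share of all genes at that level was not computed. Only 5 of 13644 genes (0.0366%) read at least 1 above all 14 other arrays, and 4 of these were members, Usp18, Oasl2, Ifit1 and Rtp4, with Gbp6 of the listed interferon-induced genes as the fifth. Usp18 read 9.19 there, against 7.74 on the next array. Of the 47 genes (0.344%) at least 1 above both other 14-day animals, 21 were members. Set against the other 14-day animals, the members differed by 0.20 (Irf1) to 3.38 (Usp18), with a median of 1.26. Across the 33 members, this profile and the difference of the 1-day from the immediate animals, which use no array in common, had a Pearson r of 0.85 and a Spearman rho of 0.67. Over all 13644 genes the values were 0.19 and 0.15. These correlations are across genes, which are not independent replicates, and are given as a description. In 32 of 33 members the difference of 14-day replicate 2 from the other 14-day animals exceeded that of the 1-day mean from the immediate mean. The exception was Zbp1 (0.31 against 0.71). The first difference is that of 1 animal and the second that of a group mean, and the share of all genes was not computed.

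The rest of the pathway was read from lists of its parts. No interferon ligand was called at any time against control. Of 10 listed ligands 6 had a probe set and only 2, Ifna1 and Ifna2, were tested. Ifnb1 lay between 4.03 and 4.57 and Ifng between 2.67 and 2.99 on all 15 arrays. Both were too dim for the test, so these values cannot show whether either ligand changed. Of 9 receptor and kinase genes 1 rose at 1 day, against 1.52% of all genes called higher. This was Ifnar2, a chain of the type I receptor, by 0.30 ± 0.06 (adjusted p = 0.0217 by limma). Ifnar2 read 8.92, 9.01 and 8.91 in controls and 9.23, 9.27 and 9.24 at 1 day, and 9.03 on 14-day replicate 2. Ifnar1, the other chain, changed by -0.05 ± 0.07 at 1 day, and Jak1 and Tyk2 by 0.02 ± 0.05 and -0.05 ± 0.13.

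Among 5 tested transducers and brakes, Socs3, an inhibitor of Jak kinases that many cytokines induce, rose both immediately (1.97 ± 0.39, adjusted p = 0.0273 by limma) and at 1 day (2.01 ± 0.39, adjusted p = 0.0135). It read 5.95, 6.30 and 5.89 in controls, 7.67, 7.19 and 9.20 immediately and 7.74, 8.54 and 7.88 at 1 day, but 6.17 on 14-day replicate 2, inside the range of the controls. Of 11 tested sensors and adaptors none was called at 1 day. Of 31 other tested interferon-induced genes, 4 rose at 1 day (Cxcl10, Cxcl11, Ifitm2 and Psme1) and 1 fell (Ifi30). Of all genes 1.52% were called higher and 1.66% lower. Without 14-day replicate 2, 12 rose and 1 fell, against 1.50% and 1.33% of all genes. The median over these 31 genes was 0.44.

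Cxcl10, a chemokine that draws T cells, read 4.18, 4.38 and 4.17 in controls, 4.68, 5.46 and 5.00 immediately and 5.71, 7.29 and 6.65 at 1 day. It rose by 2.31 ± 0.32 at 1 day (adjusted p = 0.00186 by limma). On 14-day replicate 2 Cxcl10 read 5.04, below every 1-day animal, where most members read above them. Cxcl11 read 5.96, 6.06 and 5.45 at 1 day and 5.20 on 14-day replicate 2. Both chemokines and Socs3 thus separate the 1-day animals from 14-day replicate 2, a contrast between groups and 1 animal that was not tested.

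Markers of other cell types moved with some of these values. At 1 day 4 of 7 tested macrophage genes rose, Cd68, Aif1, C1qa and C1qb, against 1.52% of all genes called higher. Cd68, a lysosomal protein of macrophages, read 5.63, 6.10 and 5.99 in controls and 7.89, 7.84 and 7.85 at 1 day. Its change was 1.95 ± 0.20 (adjusted p = 0.000574 by limma), larger than that of any member. For the marker and pathway genes no fit with sex as a term is given, so their 1-day changes against control cannot be told apart from sex. The mean log2 value of the 8 macrophage genes lay between 6.56 and 6.79 in controls, between 7.45 and 7.70 at 1 day and between 6.54 and 7.20 at 7 days. The part of these markers in the 1-day values of the members was not tested. On 14-day replicate 2 Cd68 read 6.34 and Aif1 5.55, and the macrophage mean was 6.89, below every 1-day animal and above every control and both other 14-day animals, which read 6.76 and 6.66. The mean of 4 endothelial genes was 7.28 there, the second highest of the 15 arrays after 7.46 in a 7-day animal. The mean of 3 plasmacytoid dendritic cell genes was 6.97, the highest of the 15 arrays, with 6.94 as the next. Of these genes only the dim Ccr9 (5.29) was highest there, while Siglech (5.95) and Tcf4 (9.68) lay inside the range of the other arrays.

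None of the 3 tested T cell genes, the 1 natural killer cell gene or the 3 plasmacytoid dendritic cell genes was called at 1 day. The mean of 5 T cell genes stayed between 4.90 and 5.11 on all arrays, with 4.99 on 14-day replicate 2, and no B cell gene was bright enough to be tested. Neutrophil genes varied widely between animals. S100a8 read 6.88, 8.20 and 10.82 in controls and was lowest, at 5.78, on 14-day replicate 2. The part of these markers in the members' values was not tested. Of 4 neuron genes, 1 fell at 1 day against control in both fits (1.66% and 1.33% of all genes called lower). This was the calcium-binding protein gene Calb2 (-0.25 ± 0.05, adjusted p = 0.0174 by limma). Against the immediate animals 2 fell, Calb2 and the neurofilament gene Nefl (4.38% of all genes called lower). The neuron mean lay between 12.32 and 12.38 at 1 day, below all other arrays, and was 12.44 on 14-day replicate 2. Bone genes were lower at 1 day, with 2 of 3 tested called (Ibsp and Dmp1), and 1 without 14-day replicate 2. The shares of all genes called lower were 1.66% and 1.33%.

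**Figure D4:**
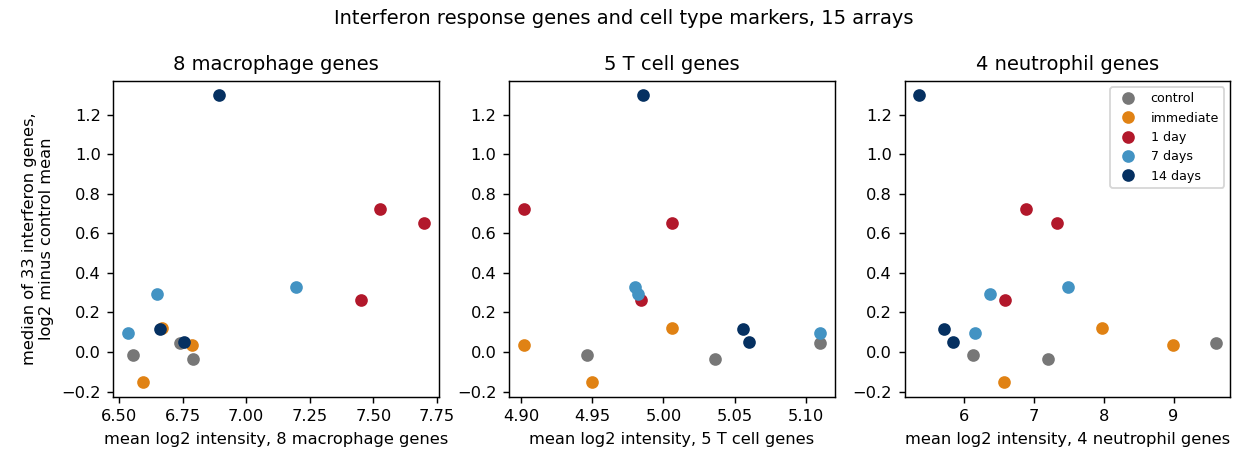
Median difference from the control mean over the 33 tested members (vertical axis, log2) against the mean log2 intensity of 8 macrophage, 5 T cell and 4 neutrophil genes (horizontal axes) for each of the 15 arrays, coloured by group. The 1-day animals combine macrophage means of 7.45 to 7.70 with member medians of 0.26 to 0.72, while 14-day replicate 2, at a member median of 1.30, has a macrophage mean of 6.89 and the lowest neutrophil mean.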

How the data were processed

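RNA of the auditory nerve was measured on 15 Affymetrix 3′ arrays, 3 for each of 5 groups, from 50 ng of total RNA. Each sample is 1 animal, per the labels' protocols. The deposited values are on the log2 scale, from 2.06 to 14.63, and the submitters' processing notes list RMA, MAS5 and the Affymetrix Expression Console, with no version. The step that made the values is not named in the sources used here. They were used without further normalization. These methods treat dim signals differently, and what this does to dim genes was not tested. The number of arrays limits the precision.

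Gene names came from the platform annotation, where 34945 of 45101 probe sets paired with 1 symbol, 932 with several and 64 were control probe sets. Each gene was read from its probe set with 1 symbol that was brightest on average over the 15 arrays, and genes in the lowest 25% (at or below 4.70) were left out. The 5 group means were estimated by lmFit and eBayes with trend (limma 3.58.1, R 4.3.3) from all 15 arrays and tested two-sided in 7 contrasts, with Benjamini-Hochberg adjustment over all 13644 genes and a threshold of 0.05. Errors are standard errors of this fit. Where a group fell to 2 arrays, its spread was taken from the other groups too.

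The members, lists and rules were chosen with earlier results of these data known. Values on every array were given for members called in any contrast, for the 6 largest rises and 3 largest falls at each time, and for Irf7, Irf9, Stat2, Isg15, Ifit1, Ifit3, Usp18, Gbp2, Bst2 and Ifitm3. Other members are given by change, and genes outside the list come from pathway and marker lists. Alternatives were other filters, probe set rules, normalizations, priors and weights, sex as a term, female arrays alone, only the groups compared, the replicate number as a block and each array left out. Functions were tested on simulated data.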

Additional observations from a re-analysis of the deposited data

Results flagged for a closer look

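A difference between neighbouring times passed the test itself for 3 members. The share of all genes called was 8.39% from the immediate to the 1-day animals and 9.35% from 1 to 7 days. Of all genes 4.02% were called higher in the first comparison and 4.22% lower in the second. Among the 33 members 9.09% were called in the first, all higher, and 3.03% in the second, lower. Zbp1 was higher at 1 day than immediately after noise by 0.71 ± 0.16 (adjusted p = 0.0171 by limma). With the mean over its probe sets, which disagree, the change was 0.34 (adjusted p = 0.0975 by limma). Trim25 was higher by 0.64 ± 0.18 (adjusted p = 0.0384 by limma) and Ifitm3 by 1.10 ± 0.32 (adjusted p = 0.0482 by limma) in the same comparison. Ifitm3 was also lower at 7 days than at 1 day, by -1.17 ± 0.32 (adjusted p = 0.0349 by limma). Each of the 3 animals of 1 day lay on the same side of the 3 animals compared with it in all 4 results.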

How the results depend on the processing

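At 1 day against control, where the count was 3, it was 1 with no filter or the mean over probe sets, 0 with sex as a term or without the trend, 11 with only the 2 groups compared, 6 with array weights, and 5 with quantile normalization. From the immediate animals to 1 day, where it was 3, it was 1 with the mean over probe sets, sex as a term or no trend, 20 with only the 2 groups, 7 with array weights or a common 75th percentile, 6 with quantile normalization and 10 with sex as a term after leaving out 14-day replicate 2. From 1 to 7 days the count of 1 became 0 with sex as a term, without the trend and with array weights. Leaving out 1 array gave 0 to 14, 0 to 20 and 0 to 8 in these comparisons, the highest each time without 14-day replicate 2, and 0 to 0 in the other 4. The median change over the members then ranged from 0.42 to 0.71 at 1 day, -0.10 to 0.10 immediately, 0.20 to 0.31 at 7 days and 0.07 to 0.72 at 14 days, and from 0.51 to 0.73, -0.49 to -0.30 and -0.18 to 0.49 between consecutive times. The cause of these shifts was not tested. The share of all genes called is given above for sex as a term and for leaving out 14-day replicate 2. For the other settings it was not computed, so a change in the members there cannot be told apart from one in all genes.

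With the replicate number as a block, the count was 5 at 1 day against control and 8 against the immediate animals. The share of all genes was not computed for this setting either. The numbers were not treated as pairs in the main fit. The correlations of same-numbered arrays ran from -0.33 to 0.30, and 11 of 30 pairs exceeded 0.1. Such correlations cannot settle whether animals of the same number were handled together. Female arrays alone gave no 1-day value, since no female was taken then.

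Without 14-day replicate 2, 9 of 33 changes turned from above to below 0 at 14 days against control (Irf9, Eif2ak2, Trim25, Ifit2, Oas2, Rsad2, Bst2, Samd9l and Parp9), and 30 of 33 did from 7 to 14 days. Every alternative was run for all members at 1 day against control, for the 6 largest rises and 3 largest falls at the other times against control and for the called members between neighbouring times, and among these 4 genes changed sign. At 1 day the log2 fold change of Oas2 was 0.035 with sex as a term and ranged from -0.21 to 0.033 with 1 array left out. Irf1 then ranged from -0.16 to 0.022 and Parp9 from -0.027 to 0.083, and Parp9 was -0.025 with sex as a term after leaving out 14-day replicate 2. At 7 days Irf1 ranged from -0.17 to 0.0083. At 14 days Oas2 was -0.016 with array weights, -0.035 with sex as a term after leaving out replicate 2 and from -0.10 to 0.12 with 1 array left out. Irf1 was 0.0086 with array weights and ranged from -0.13 to 0.052. Isg20 was 0.13 with female arrays alone and ranged from -0.36 to 0.13. The cause was not tested.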

Other observations

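Beyond the members, 26 of the 47 genes that 14-day replicate 2 held at least 1 above both other 14-day animals were 7 genes of the other interferon lists and 19 further genes. The 7 were Iigp1, Irgm2, Gbp6, Irgm1, Dhx58, Ifi47 and Lgals9. The further genes, named here after their values were seen, included Ifi27l2a (2.61 above the nearer of the other 14-day animals) and Ly6e (1.97), which interferon is known to induce, and Igha (2.77), the constant region of immunoglobulin A. They also included the transporters Slc5a5 (1.43), Slc6a12 (1.31), Slc38a5 (1.18), Slc22a8 (1.14) and Slc6a20a (1.12), the lymphatic and macrophage receptor Lyve1 (1.11) and the matrix gene Fmod (1.21). Igha was not highest on this array, lying -0.01 from the highest of the other 14.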
